A study of Homo sapiens with 6 samples.

Results

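A set of 40 genes of the antioxidant defence of human cells was followed in HaCaT keratinocytes with a STUB1 knockout: the transcription factor NRF2 with its partners and targets, and the enzymes of the glutathione, thioredoxin, NADPH, ferritin and superoxide systems. They were taken by gene symbol from a list of pathway genes, drawn up with earlier results of these data known, and all 40 were among the 20014 genes of the deposited table. HaCaT is an immortalized human keratinocyte line, and STUB1 (CHIP) is a ubiquitin ligase that works with the HSP70 and HSP90 chaperones. Poly(A) RNA was sequenced from 6 libraries: 3 of the genotype STUB1 knockout and 3 of control cells. Both groups carried a lentiviral lentiCRISPR guide, against STUB1 in one group and a control guide in the other, and neither had any further treatment. Cells were sorted into plates, and grown colonies were screened by STUB1 immunoblot. Whether the libraries of a group stand for different clones, different cultures or repeat preparations of one clone is not given, so p-values measure the spread between these libraries alone, which may be technical.

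NRF2, encoded by NFE2L2, is held in the cytoplasm by KEAP1, which feeds it to a CUL3 ubiquitin ligase for degradation. Oxidants and electrophiles modify KEAP1, and NRF2 then enters the nucleus, pairs with a small MAF protein such as MAFG, and binds antioxidant response elements beside genes for glutathione synthesis, thioredoxin recycling, NADPH supply, quinone reduction and iron storage. In skin this programme protects keratinocytes from ultraviolet light and reactive chemicals.

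Values were FPKM, fragments divided by the length of the transcript and by the total of the library, so levels can be compared between genes per unit of length. The 6 libraries held 11200 to 11292 genes at 1 FPKM or more, and their sizes, estimated from the steps between low values, were 45400000 to 52500000 reads. STUB1 mRNA, the targeted transcript, measured 21.6, 24.7 and 23.2 FPKM in the knockout and 37.8, 41.9 and 52.7 FPKM in the control. It fell to 52.5% of the control mean, the direction the labels give (adjusted p = 0.00125), and 42.4% of its exonic bases are shared with JMJD8 on the opposite strand. Of 12 keratinocyte markers, 10 reached 1 FPKM in every library, whereas the keratins KRT14 and KRT17 stayed under 1 FPKM in all 6. All 10 fibroblast markers, 5 of 7 melanocyte markers and 7 of 8 leukocyte markers were under 1 FPKM in every library. The summed keratinocyte markers were 1078 to 1184 FPKM in the knockout and 917 to 980 FPKM in the control, and the part of this difference in the results below was not tested. In bulk RNA, fewer cells of a type and less RNA per cell cannot be told apart. Control 3 stood apart from the other libraries, and many of the results that move with it, though not all, are given with and without it.

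With genotype as the only term of the fit, none of the antioxidant genes rose and 8 fell: ME1, GCLC, FTH1, GSR, SOD1, GCLM, MAFG and SOD2. With the replicate numbers as a block GSTP1 also passed, as higher (adjusted p = 0.0427). The master regulator NFE2L2 and the targets NQO1, HMOX1, SLC7A11, TXNRD1 and SRXN1 did not pass the test, whereas the targets GCLC, GCLM and ME1 fell. Genes with a mean of at least 1 FPKM were tested, which took in 37 of the 40. AKR1B10, ABCC2 and MGST1 were below that level. A gene counted as higher or lower when its adjusted p in limma, after Benjamini-Hochberg correction over 11262 genes, was under 0.05. The 8 falls were 21.6% of the tested members, against 13.3% of all tested genes that were called lower, 9.58% called higher and 22.9% called in either direction. At an unadjusted p under 0.05, 3 members were higher and 11 lower, against 17.1% and 21% of all tested genes.

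The median log2 fold change of the 37 members was -0.11, against -0.01 over all tested genes, and 26 of 37 lay below 0, against 51.8% of all genes. The knockout and control libraries did not overlap for 17 members, 4 higher and 13 lower. That is 45.9% of those tested, a share near the 45.6% of all tested genes (20.4% higher, 25.3% lower). By role, the falls were 3 of 5 genes of glutathione synthesis and recycling, 2 of 3 superoxide dismutases and catalase and 1 of 2 ferritin chains. They were also 1 of 4 NADPH enzymes and 1 of 3 in the NRF2 group, all to be read against 13.3% of all tested genes. None passed in limma among 6 phase II and aldo-keto targets, 5 glutathione peroxidases and transferases, 8 thioredoxin and peroxiredoxin genes, and 1 exporter, where 2 were higher and 3 lower at an unadjusted p under 0.05, to be read against the same 17.1% and 21%. With the values rescaled to TPM, 1 member was higher and 8 were lower, against 5.92% and 14.4% of all genes (20.3% in either direction). With the replicate numbers as a block it was also 1 and 8, against 12.1% and 14.9% (27.1%), and with GC content and length corrected 2 and 9, against 13.8% and 14.5% (28.3%). With libraries weighted by their quality it was 11 and 16, against 27.9% and 29.3% (57.2%). Leaving out knockout 1, 2 or 3 gave 3, 3 and 4 falls, against 7.96%, 5.67% and 6.48% of all genes, and leaving out control 1 gave 5, against 8.24%. With no filter on low values 6 of the 40 were lower, against 9%.

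**Figure D1:**
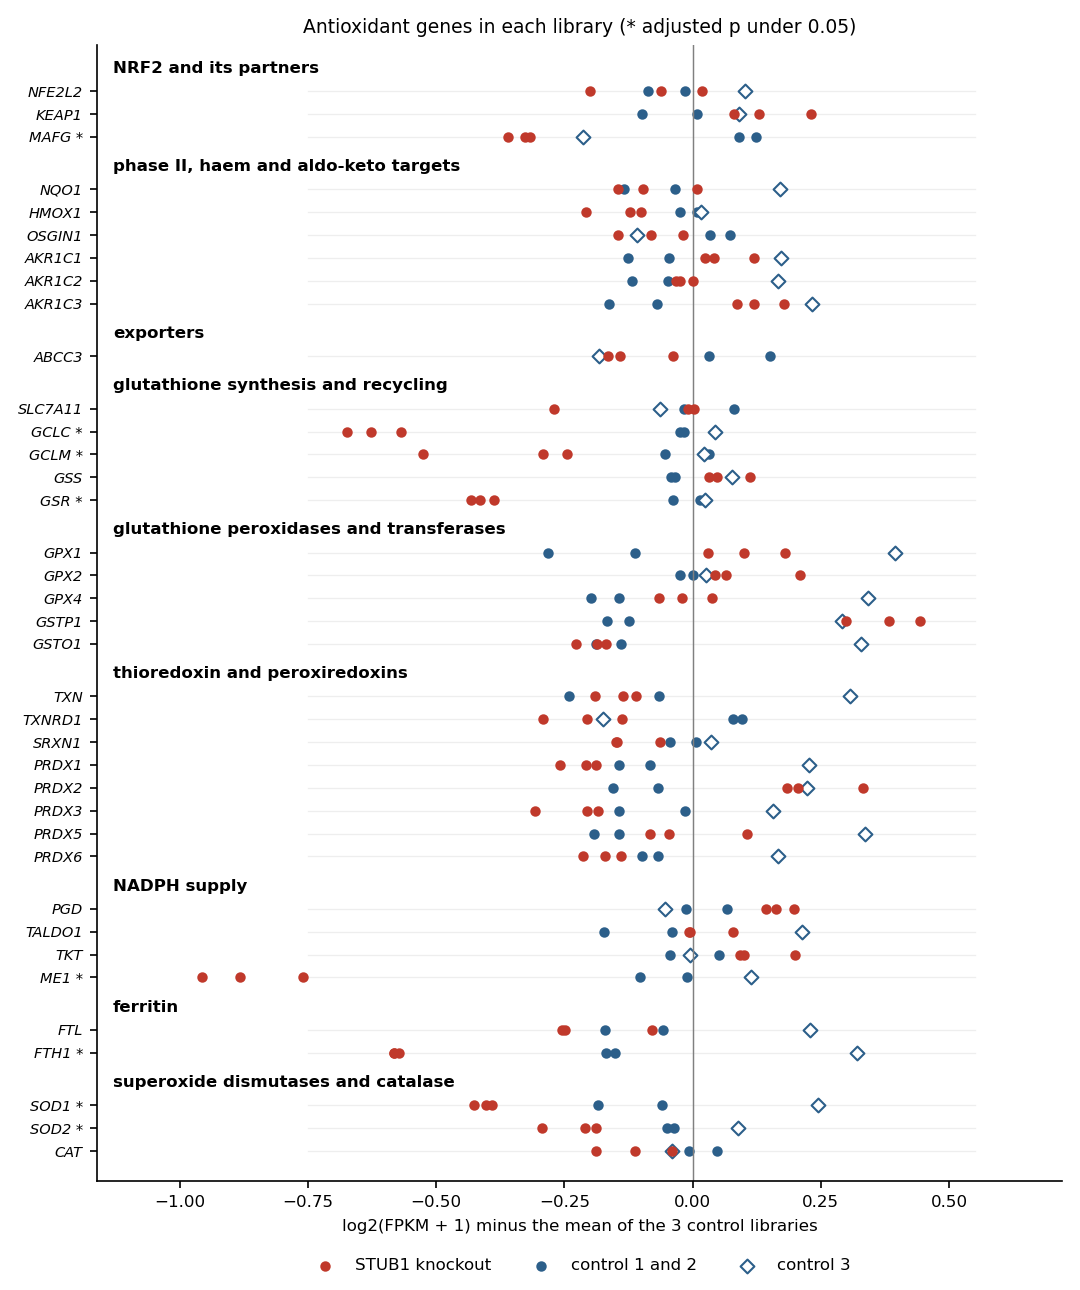
Each row is 1 tested member and each point 1 library, as log2(FPKM + 1) minus the mean of the 3 control libraries. Red points are the knockout libraries, filled blue points controls 1 and 2, open diamonds control 3, and an asterisk marks the 8 genes with an adjusted p under 0.05. ME1, GCLC, FTH1 and GSR have all red points well to the left of all blue ones, and control 3 is the right-most control in 28 of 37 rows.

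The promoters were searched for the element that NRF2 binds, and 4 with a match are printed: ME1 and GCLM, the members that fell with one, and GSTP1 and TXNRD1, members with one that did not pass. Each is the 250 bases before a transcription start of the RefSeq annotation on GRCh38.p14, 5′ to 3′ on the gene's strand, in lower case. Capitals mark a match to TGACNNNGC, the core of the antioxidant response element, sought on both strands.
ME1: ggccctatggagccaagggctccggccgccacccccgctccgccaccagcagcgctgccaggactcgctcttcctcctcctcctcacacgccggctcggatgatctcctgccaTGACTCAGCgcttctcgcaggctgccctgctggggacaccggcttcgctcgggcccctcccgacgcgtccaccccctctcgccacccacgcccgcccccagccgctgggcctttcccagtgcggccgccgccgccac
GCLM: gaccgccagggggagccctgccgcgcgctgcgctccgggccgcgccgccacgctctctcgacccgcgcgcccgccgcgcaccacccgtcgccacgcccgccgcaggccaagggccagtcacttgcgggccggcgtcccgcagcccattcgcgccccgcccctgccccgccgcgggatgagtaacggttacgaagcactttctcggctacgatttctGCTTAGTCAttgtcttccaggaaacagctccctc
GSTP1: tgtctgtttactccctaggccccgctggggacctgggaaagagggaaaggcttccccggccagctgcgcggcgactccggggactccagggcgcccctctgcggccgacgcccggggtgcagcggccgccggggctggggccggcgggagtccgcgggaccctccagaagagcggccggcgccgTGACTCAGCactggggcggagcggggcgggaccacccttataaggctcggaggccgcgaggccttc
TXNRD1: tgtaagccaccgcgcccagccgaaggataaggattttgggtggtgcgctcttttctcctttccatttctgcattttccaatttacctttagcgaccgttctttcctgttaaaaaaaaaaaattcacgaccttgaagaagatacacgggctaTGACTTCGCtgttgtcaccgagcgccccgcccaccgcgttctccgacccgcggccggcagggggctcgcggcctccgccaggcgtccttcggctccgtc
The ME1 sequence is chr6:83431052-83431301 (minus strand), with its match TGACTCAGC 129 bases before the start. The GCLM sequence is chr1:93909431-93909680 (minus strand), with the match on the other strand (GCTTAGTCA), 26 bases before the start. The GSTP1 sequence is chr11:67583562-67583811 (plus strand), with TGACTCAGC 58 bases before the start, and the first of the TXNRD1 starts that matched is chr12:104215529-104215778 (plus strand), with TGACTTCGC 91 bases before. The ME1 and GSTP1 matches overlap TGANTCA, the site of the AP-1 factors, whereas the other printed ones do not.

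RefSeq promoters were found for 30 of the 40 members, with 42 starts. Those of HMOX1, AKR1B10, ABCC3, SLC7A11, GSS, GSR, PRDX1, PRDX6, FTH1 and SOD1 were not among them. The element matched in 8 of the 30: ME1, GCLM, GSTP1, TXNRD1, GSTO1, GPX2, PGD and KEAP1. By start it was 9 of 42 (21.4%), against 3830 of 35116 starts of all genes (10.9%). Among the 5 members that fell and had a promoter entry, 2 held a match, ME1 and GCLM, and GCLC, MAFG and SOD2 held none in this window. A match is a run of letters and not a measured binding site.

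NFE2L2 mRNA did not differ beyond its spread. It measured 34.5, 29.5 and 32.6 FPKM in the knockout and 33.7, 32.0 and 36.6 FPKM in the control, so the groups overlapped (log2 fold change -0.08, SE 0.0843, adjusted p = 0.505). NRF2 is controlled mainly through its protein, which these data do not measure. KEAP1, its inhibitor, measured 14, 15.1 and 13.5 FPKM in the knockout and 11.8, 12.8 and 13.6 FPKM in the control (log2 fold change 0.14, adjusted p = 0.213). Those groups overlapped through the highest control, control 3, and without it the adjusted p was 0.0391.

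MAFG, the small MAF partner of NRF2 at the response element, fell. It measured 8.51, 8.80 and 8.73 FPKM in the knockout and 12.3, 12.0 and 9.53 FPKM in the control, or 8.68 ± 0.154 against 11.3 ± 1.54 (SD, n = 3 each). Control 3 was the lowest control and still above every knockout library. MAFG stood at 76.8% of control (log2 fold change -0.34, SE 0.0976, adjusted p = 0.0362), and at a log2 fold change of -0.45 without control 3. The call was lost on leaving out any of the other 5 libraries (adjusted p = 0.0782 to 0.12) and with no filter on low values (adjusted p = 0.0677). MAFG lies at chr17:81918270-81927714 (minus strand, GENCODE 29 on GRCh38). Of 73 tested genes within 5 Mb of it, 94.5% were below 0 and 49 were called lower, with a median log2 fold change of -0.38, and MAFG stood among them at percentile 60.3.

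GCLC, GCLM and GSR, 3 of the 5 genes of glutathione synthesis and recycling, fell. Cystine enters through SLC7A11, GCLC and GCLM form the catalytic and modifier subunits of glutamate-cysteine ligase, the rate-limiting step, GSS adds glycine, and GSR reduces oxidized glutathione with NADPH. GCLC measured 11.7, 10.8 and 11.2 FPKM in the knockout and 17.6, 17.5 and 18.4 FPKM in the control. The groups were wide apart and each was tight, at 11.2 ± 0.440 against 17.9 ± 0.488 FPKM (SD, n = 3 each). GCLC fell to 62.9% of control (log2 fold change -0.62, SE 0.0689, adjusted p = 0.000609).

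GCLM, its partner subunit, measured 22.4, 18.9 and 23.2 FPKM in the knockout and 28.3, 26.6 and 28.1 FPKM in the control, 21.5 ± 2.28 against 27.7 ± 0.935 (SD, n = 3 each). Every knockout library was below every control, with knockout 2 the lowest. GCLM fell to 77.8% of control (log2 fold change -0.35, SE 0.0872, adjusted p = 0.0207). Correcting each library for GC content and length made it -0.20 (adjusted p = 0.0268), and the call was lost without knockout 1, knockout 2 or control 1 (adjusted p = 0.0533, 0.0657 and 0.0683).

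GSR measured 39.5, 40 and 40.8 FPKM in the knockout and 52.2, 54.2 and 54.6 FPKM in the control. Each group was tight and the groups lay far apart, at 40.1 ± 0.650 and 53.7 ± 1.29 (SD, n = 3 each). GSR fell to 74.7% of control (log2 fold change -0.41, SE 0.0652, adjusted p = 0.00284). The cystine importer SLC7A11 measured 8.02, 6.46 and 7.95 FPKM in the knockout and 8.52, 7.90 and 7.61 FPKM in the control, with overlapping groups (log2 fold change -0.09, adjusted p = 0.496). GSS, at 19.2 ± 0.580 against 18.4 ± 0.864 FPKM (SD, n = 3 each), also did not pass (adjusted p = 0.551).

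Of 22 other tested glutathione genes, 2 rose and 3 fell (9.09% and 13.6%, against 9.58% and 13.3% of all tested genes). The 4 of them with the smallest adjusted p were OPLAH, CHAC1, CHAC2 and GLO1. CHAC1, which cleaves glutathione and is induced by amino acid stress, rose 1.61-fold (log2 fold change 0.55, adjusted p = 0.00255), from 2.97, 3.25 and 3.55 to 4.81, 5.74 and 5.16 FPKM. OPLAH, the oxoprolinase that returns glutamate to the cycle, rose 1.73-fold (adjusted p = 0.00184). CHAC2, a constitutive relative of CHAC1, fell to 73.9% (adjusted p = 0.0167), but with GC and length corrected its log2 fold change was -0.09 (adjusted p = 0.279). GLO1, the glyoxalase that clears methylglyoxal with glutathione, fell to 83.6% (adjusted p = 0.0355) and lay at a log2 fold change of 0.04 after that correction. Its call was also lost without any of 5 libraries in turn (adjusted p = 0.0594 to 0.119), and that of CHAC2 without knockout 2 (adjusted p = 0.0722).

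**Figure D2:**
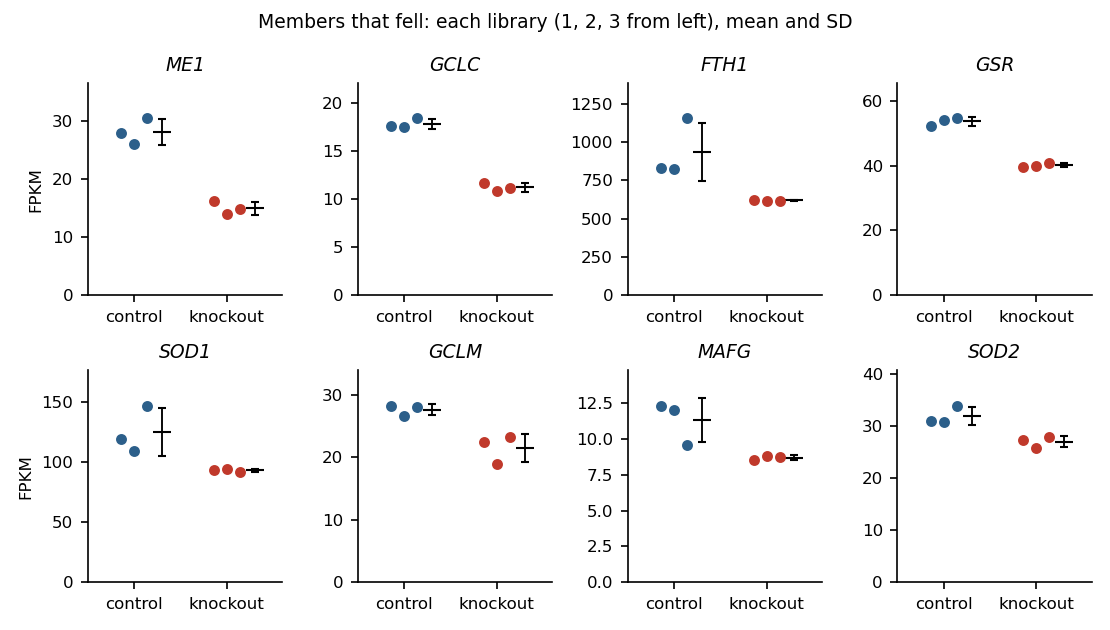
Each panel shows 1 of the 8 members that fell, with FPKM on an axis from 0, control libraries 1 to 3 in blue on the left and knockout libraries 1 to 3 in red on the right; black marks are the mean and SD. In every panel all knockout points are below all control points, and in the FTH1 and SOD1 panels control 3 is far above controls 1 and 2.

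ME1, the malic enzyme that makes cytosolic NADPH from malate, had the lowest fold change of the 37. It measured 16.2, 14 and 14.8 FPKM in the knockout and 27.9, 26.1 and 30.5 FPKM in the control. The highest knockout library was well under the lowest control, and the means were 15.0 ± 1.11 and 28.2 ± 2.22 FPKM (SD, n = 3 each). ME1 fell to 53.1% of control (log2 fold change -0.87, SE 0.0849, adjusted p = 0.000336). It lies at chr6:83210389-83431071 (minus strand). All 27 tested genes within 5 Mb of it were below 0 as well, 24 of them called lower, with a median log2 fold change of -0.56, and ME1 was lower than all but a few of them (percentile 7.41).

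The other NADPH members belong to the pentose phosphate pathway, and none of them passed. PGD, 6-phosphogluconate dehydrogenase, which makes NADPH directly, measured 85.6, 87.8 and 84.5 FPKM in the knockout and 75.7, 80.1 and 73.6 FPKM in the control. The knockout libraries were all above the controls, yet the gene did not pass (log2 fold change 0.17, adjusted p = 0.109). TKT, transketolase, at 164 ± 6.96 against 149.8 ± 5.11 FPKM, did not overlap either (log2 fold change 0.13, adjusted p = 0.222, and -0.05 with GC and length corrected). TALDO1, transaldolase, was at 97.0 ± 3.23 against 96.3 ± 13.7 FPKM (SD, n = 3 each; adjusted p = 0.909).

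Of 14 further NADPH genes, 1 rose and 3 fell (7.14% and 21.4%, against 9.58% and 13.3% of all tested genes). NNT, the mitochondrial transhydrogenase, rose 1.46-fold (log2 fold change 0.49, adjusted p = 0.0043), from 6.94, 7.09 and 6 to 10.3, 9.19 and 9.72 FPKM. MTHFD1L, a mitochondrial folate enzyme, fell to 72.8% (adjusted p = 0.00231), and RPIA, the ribose phosphate isomerase, fell to 71.9% (adjusted p = 0.00835, or 0.0539 without knockout 2). ME2, the mitochondrial relative of ME1, fell to 82.7% (adjusted p = 0.0339), a call lost without any 1 of 5 libraries (adjusted p = 0.0683 to 0.121). MTHFD1L also lies on chromosome 6, where its neighbours had a median log2 fold change of -0.61. All 24 of them were below 0 and 21 were called lower, and MTHFD1L was higher than most of them (percentile 75.0).

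Ferritin, the shell that stores iron in a form that cannot drive oxidation, is built from the heavy chain FTH1 and the light chain FTL. FTH1 measured 622, 618 and 618 FPKM in the knockout and 833, 823 and 1155 FPKM in the control, or 619.5 ± 2.20 against 937.0 ± 189 (SD, n = 3 each). The knockout libraries were nearly equal, and control 3 stood far above the other controls. FTH1 fell to 66.1% of control (log2 fold change -0.58, SE 0.131, adjusted p = 0.0147). Without control 3 the fall was smaller, -0.42, and tighter (adjusted p = 1.15e-05), and on leaving out any 1 knockout library the call was lost (adjusted p = 0.055 to 0.0841).

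FTH1 lies at chr11:61959718-61967660 (minus strand) among genes that mostly stood above 0: the median of 178 neighbours was 0.13, and FTH1 was at percentile 1.69 among them. Of its exonic bases, 1267 (62.4%) are shared with BEST1 on the opposite strand, which was listed at 161, 153 and 157 FPKM in the knockout and 218, 205 and 310.3 FPKM in the control. The strand setting is not stated, so the signals of both genes over these bases cannot be told apart, and FTH1 also has 25 pseudogene copies in the annotation that may share reads. FTL measured 233, 263 and 234 FPKM in the knockout and 247, 267 and 326 FPKM in the control. Its groups overlapped and it did not pass (log2 fold change -0.20, adjusted p = 0.226, with 16 pseudogene copies). Of 13 other iron and haem genes 1 rose and none fell in limma (7.69% and 0%, against 9.58% and 13.3% of all tested genes). At an unadjusted p under 0.05, 1 was lower, and with the replicate block 1 was called lower. SLC48A1, the haem transporter of the lysosome, rose 1.31-fold (adjusted p = 0.0149), a call lost without knockout 2, knockout 3 or control 1 (adjusted p = 0.0578 to 0.0838).

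SOD1 and SOD2 remove superoxide by turning it into hydrogen peroxide, and both fell. SOD1, the copper-zinc enzyme of the cytosol, measured 93.5, 94.3 and 92.0 FPKM in the knockout and 119, 109 and 147 FPKM in the control, 93.3 ± 1.17 against 124.9 ± 19.9 (SD, n = 3 each). As with FTH1, the knockout libraries were tight and control 3 was the highest. SOD1 fell to 74.7% of control (log2 fold change -0.41, SE 0.107, adjusted p = 0.0261), to -0.28 without control 3 (adjusted p = 0.000924), and the call was lost on leaving out any 1 knockout library (adjusted p = 0.0816 to 0.106) or with no filter on low values (adjusted p = 0.055). The gene lies at chr21:31659622-31668931 (plus strand), below most of its 38 neighbours (median -0.08, percentile 2.63), and has 3 pseudogene copies.

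SOD2, the manganese enzyme of mitochondria and also a target of NF-kB, measured 27.4, 25.8 and 27.8 FPKM in the knockout and 31.0, 30.7 and 33.9 FPKM in the control. The groups were apart by a narrow margin, at 27.0 ± 1.04 against 31.9 ± 1.75 (SD, n = 3 each). SOD2 fell to 84.7% of control (log2 fold change -0.23, SE 0.0725, adjusted p = 0.0473), which was the smallest of the 8 falls. All 21 tested genes within 5 Mb of SOD2, at chr6:159669057-159745186 (minus strand), were below 0, with a median of -0.53, and SOD2 was higher than nearly all of them (percentile 95.2). The call was lost under 8 of 15 alternatives. Catalase, CAT, which splits hydrogen peroxide in peroxisomes, did not pass at 20.3 ± 1.11 against 22 ± 0.722 FPKM (SD, n = 3 each; adjusted p = 0.287).

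Among 12 other genes that make or remove superoxide and peroxide, 2 rose and none fell in limma. These shares were 16.7% and 0%, against 9.58% and 13.3% of all tested genes. At an unadjusted p under 0.05, 0 were lower, and with no filter 1 was called lower. The 2 that rose were the dual oxidases DUOX1 and DUOX2, which produce hydrogen peroxide at epithelial surfaces. DUOX1 measured 8.92, 9.15 and 8.35 FPKM in the knockout and 5.75, 6.42 and 3.62 FPKM in the control, 1.67-fold higher (log2 fold change 0.67, adjusted p = 0.0151). DUOX2 rose 1.61-fold (log2 fold change 0.52, adjusted p = 0.0169). Control 3 was the lowest library for both, and without it DUOX1 stood at 0.47 and DUOX2 at 0.36. Both calls were lost without knockout 1 (adjusted p = 0.0563 and 0.0597) and without knockout 2 (adjusted p = 0.0944 for both).

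None of the 8 thioredoxin and peroxiredoxin members passed with genotype as the only term. TXN, the disulfide-reducing thioredoxin, measured 948, 896 and 931 FPKM in the knockout and 977, 865 and 1266 FPKM in the control (log2 fold change -0.15, adjusted p = 0.452). The groups overlapped, with control 2 the lowest library and control 3 the highest, and TXN has 7 pseudogene copies. TXNRD1, which recharges it with NADPH, measured 94.3, 84.6 and 89.8 FPKM in the knockout and 111, 109.6 and 91.9 FPKM in the control. The groups overlapped only through control 3, the lowest control: the log2 fold change was -0.21 (adjusted p = 0.122) and -0.30 without it (adjusted p = 0.000734).

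SRXN1, the sulfiredoxin that repairs overoxidized peroxiredoxins, measured 50.7, 47.7 and 47.8 FPKM in the knockout and 53.3, 51.4 and 54.4 FPKM in the control. The groups did not overlap, but the difference did not pass (91.8% of control, log2 fold change -0.12, adjusted p = 0.221). The peroxiredoxins remove peroxide, most of them with thioredoxin as donor. PRDX1, at 346.9 ± 9.04 against 405.9 ± 57.9 FPKM, PRDX3 of mitochondria, at 129.7 ± 5.62 against 153 ± 16.2 FPKM, and PRDX6, at 135.6 ± 3.50 against 153.7 ± 16 FPKM, were lower without overlap and did not pass (SD, n = 3 each; adjusted p = 0.163, 0.0927 and 0.176). With GC and length corrected, PRDX3 and PRDX6 stood at log2 fold changes of -0.04 and -0.02, from -0.23 and -0.17. PRDX3 passed as lower without control 2 (adjusted p = 0.0469) or control 3 (adjusted p = 0.0468). PRDX2 lay the other way, at 166 ± 9.38 against 141 ± 20.1 FPKM (adjusted p = 0.128, and 0.0273 with GC and length corrected), and PRDX5 was at 203 ± 14.2 against 206 ± 43.6 FPKM (adjusted p = 0.969). Of the exonic bases of PRDX1, 24.9% are shared with an opposite-strand gene, MMACHC.

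Outside the members, 16 thioredoxin system genes were tested, and 2 rose and 5 fell (12.5% and 31.2%, against 9.58% and 13.3% of all tested genes). TXNIP, the inhibitor of thioredoxin and a sensor of glucose, measured 1.68, 1.31 and 1.48 FPKM in the knockout and 3.12, 3.54 and 3.54 FPKM in the control. It fell to 43.8% (log2 fold change -0.82, adjusted p = 0.000342). PRDX4, the peroxiredoxin of the endoplasmic reticulum, fell to 66.8% (adjusted p = 0.0047). On the X chromosome, all 17 tested neighbours of PRDX4 were below 0 and 8 were called lower, with a median log2 fold change of -0.20. The sestrins, which respond to stress and restrain mTORC1, went opposite ways: SESN2 rose 1.51-fold (adjusted p = 0.00173) and SESN1 fell to 61.2% (adjusted p = 0.00268). SESN1 is another gene of chromosome 6, with a neighbour median of -0.56. All 32 of its tested neighbours were below 0 and 28 were called lower, and SESN1 was higher than most of them (percentile 71.9).

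Of the glutathione peroxidases and transferases, GSTP1 came nearest to passing in the other direction. This abundant transferase, which conjugates electrophiles to glutathione, measured 531, 587 and 563 FPKM in the knockout and 384, 396 and 528 FPKM in the control. The groups did not overlap, by a small margin to control 3. At 128% of control the log2 fold change was 0.37 (SE 0.124, adjusted p = 0.0577), and without control 3 it was 0.52 (adjusted p = 3.65e-06). It also passed with the replicate numbers as a block (adjusted p = 0.0427), as TPM (0.0494), and with GC and length corrected (0.0125). In all it passed under 6 of 15 alternatives, and leaving out any library other than control 3 gave an adjusted p of 0.109 to 0.207. Its 178 tested neighbours had a median log2 fold change of 0.13, with 32 called higher, and GSTP1 stood at percentile 91.6 among them.

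GPX2, the epithelial glutathione peroxidase, measured 63.6, 71.5 and 64.6 FPKM in the knockout and 61.7, 60.6 and 62.8 FPKM in the control, which did not overlap (log2 fold change 0.11, adjusted p = 0.314). GPX1, the general cytosolic form, was at 105 ± 5.35 against 99.8 ± 25.5 FPKM, and GPX4, which reduces lipid peroxides and holds off ferroptosis, at 91.2 ± 3.36 against 93.4 ± 20.1 FPKM (SD, n = 3 each; adjusted p = 0.644 and 0.948). Control 3 was the highest of 6 libraries for both, and without it they stood at 0.30 and 0.15 (adjusted p = 0.00145 and 0.0368). GSTO1, an omega-class transferase, was at 48.7 ± 1.04 against 56.6 ± 11.9 FPKM (adjusted p = 0.289). MGST1, the microsomal form, was listed at 0 in 5 libraries and at 0.017 FPKM in knockout 3.

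Among the targets of NRF2, NQO1, HMOX1 and OSGIN1 did not pass, unlike GCLC, GCLM and ME1 above. NQO1, the quinone reductase, measured 87.5, 78.5 and 81.2 FPKM in the knockout and 84.8, 79.1 and 97.9 FPKM in the control (94.4%, log2 fold change -0.08, SE 0.0924, adjusted p = 0.565). HMOX1, the inducible haem oxygenase, was close to the lower limit of the test, at 0.982, 0.867 and 1.01 FPKM in the knockout and 1.17, 1.12 and 1.18 FPKM in the control. The HMOX1 groups did not overlap, at 82.3% of control, but its adjusted p was 0.121. OSGIN1, an oxidative stress-induced growth inhibitor, ranged from 1.63 to 1.87 FPKM in the knockout and from 1.70 to 2.06 FPKM in the control (adjusted p = 0.447).

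The aldo-keto reductases, which reduce carbonyls and steroids, also did not pass. AKR1C1 was at 9.66 ± 0.357 against 9.26 ± 1.13 FPKM, AKR1C2 at 79.4 ± 1 against 80.7 ± 8.6 FPKM, and AKR1C3 at 34.0 ± 1.08 against 31.2 ± 4.76 FPKM (SD, n = 3 each; adjusted p = 0.66, 0.897 and 0.381). These genes resemble one another closely, so reads may be shared between them. Without control 3, AKR1C3 stood at a log2 fold change of 0.25 (adjusted p = 0.00429). AKR1B10 was at 0.463 ± 0.212 against 0.571 ± 0.0705 FPKM (adjusted p = 0.513 in the fit with no filter on low values). The exporters of glutathione conjugates were low: ABCC3 was at 4.22 ± 0.242 against 4.68 ± 0.650 FPKM (log2 fold change -0.12, adjusted p = 0.399), and ABCC2 at 0.744 ± 0.0775 against 0.694 ± 0.0982 FPKM (adjusted p = 0.65 with no filter). With GC and length corrected ABCC3 passed as lower, at -0.28 (adjusted p = 0.0104, and 0.0238 with the replicate block as well). It lies on chromosome 17 among 55 neighbours with a median of -0.39 and was higher than most of them (percentile 83.6).

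Of 25 other detoxifying enzymes and exporters, 3 rose and 5 fell (12% and 20%, against 9.58% and 13.3% of all tested genes). EPHX1, the microsomal epoxide hydrolase, rose 1.59-fold (log2 fold change 0.61, adjusted p = 0.00121), from 8.10, 8.54 and 7.95 to 12.8, 14.1 and 12.2 FPKM. CYP4F11, a cytochrome P450 that oxidizes fatty acids, fell to 55.8% (adjusted p = 0.00385), PIR, the iron-binding pirin, to 62.1% (adjusted p = 0.00581), and PTGR2, a prostaglandin reductase, to 72.3% (adjusted p = 0.00653). PIR lost its call without knockout 2 (adjusted p = 0.0533). On the X chromosome, 96.8% of the 31 tested neighbours of PIR were below 0 and 17 were called lower, with a median log2 fold change of -0.30. The part of this stretch in the fall of PIR was not tested.

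Among 14 tested regulators of NRF2 outside the members, 1 fell and 1 rose (7.14% each, against 13.3% and 9.58% of all tested genes). SQSTM1, the autophagy receptor p62 that binds KEAP1 and is itself an NRF2 target, measured 149.9, 158 and 150.5 FPKM in the knockout and 218, 228 and 248 FPKM in the control. It fell to 66.0% of control (log2 fold change -0.59, SE 0.0780, adjusted p = 0.00127), and it shares 22% of its exonic bases with genes on the opposite strand. DPP3, another KEAP1-binding protein, rose to 119% (log2 fold change 0.24, adjusted p = 0.0321), and that call was lost as TPM (adjusted p = 0.112), without any of 5 libraries in turn (adjusted p = 0.0669 to 0.12), and with GC and length corrected together with the replicate block (0.13, adjusted p = 0.0871). Over all 116 tested redox genes outside the members, 12 rose and 17 fell, 25.0% against the background of 22.9%, with a median log2 fold change of -0.01. With the replicate block 36 of them passed, 14 higher and 22 lower, or 31% against 27.1% of all genes. Without knockout 2 or knockout 3, 14 and 19 passed, or 12.1% and 16.4% against 9.15% and 10.6% of all genes. Without control 3 it was 57, or 49.1% against 40.1%.

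**Figure D3:**
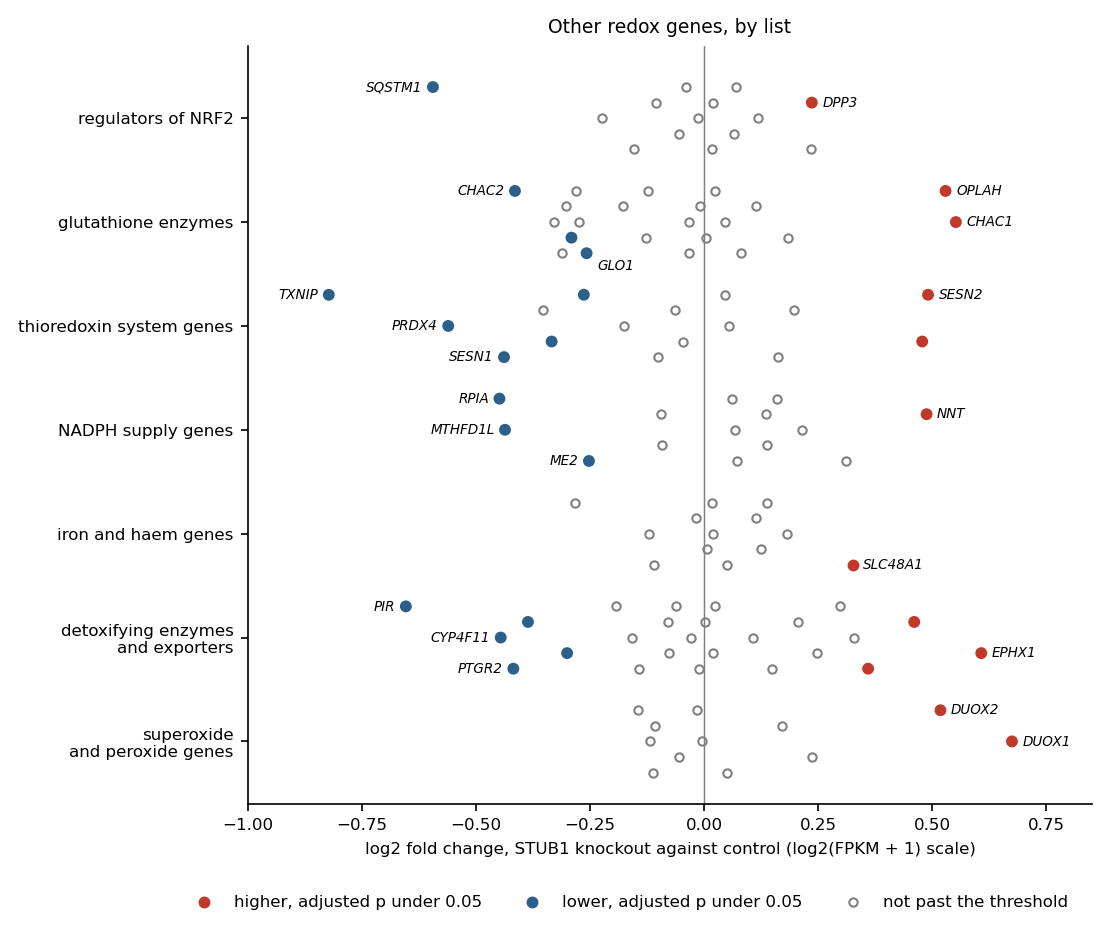
Each point is 1 tested redox gene outside the members, placed by its log2 fold change (knockout against control, log2(FPKM + 1) scale) within 1 of 7 lists; red and blue points passed as higher and lower, open points did not pass, and the vertical spread within a list has no meaning. TXNIP is farthest to the left at -0.82 and DUOX1 farthest to the right at 0.67, and the lists straddle 0.

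The 8 falls differed in their chromosomal surroundings. GCLC, GSR, FTH1 and SOD1 were lower than nearly all genes around them, with FTH1 and SOD1 described above: GCLC (chr6:53497341-53616970, minus strand) was below each of its 20 neighbours, whose median was -0.11, and GSR (chr8:30678061-30727999, minus strand) below each of its 31 neighbours, with the same median of -0.11. GCLM (chr1:93885205-93909456, minus strand) was at percentile 16.2 of 37 neighbours with a median of -0.10. Of the neighbours, 75.0% lay below 0 for GCLC, 67.7% for GSR, 73.0% for GCLM, 76.3% for SOD1 and 22.5% for FTH1. These shares are to be read against 51.8% of all tested genes. ME1, SOD2 and MAFG lay in stretches where nearly all genes were lower (100%, 100% and 94.5% below 0). Of these ME1 fell further than its neighbours' median and SOD2 fell less. The part of these stretches in the 3 falls was not tested.

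**Figure D4:**
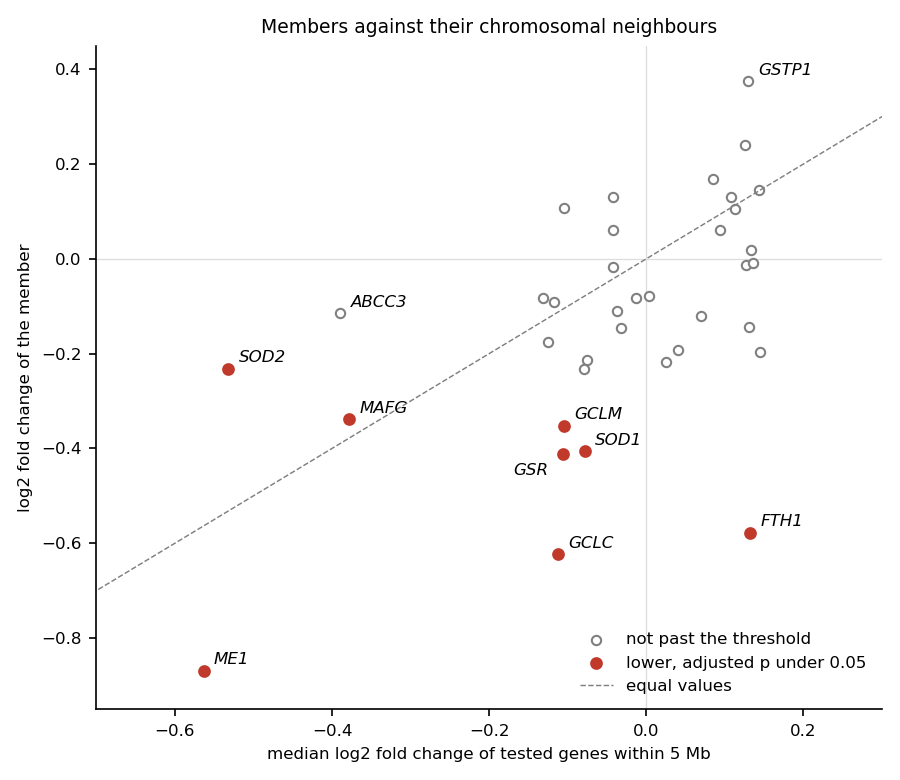
Each point is 1 tested member, with the median log2 fold change of the tested genes within 5 Mb on the horizontal axis and its own log2 fold change on the vertical axis; filled red points fell, open points did not pass, and the dashed line marks equal values. GCLC, GSR, GCLM, SOD1 and FTH1 lie far below the line at neighbour medians from -0.11 to 0.13, and so does ME1 at -0.56. MAFG lies near the line, and SOD2 and ABCC3 lie above it.

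Control 3 bore on many members. It was the highest of the 3 controls in 28 of 37 members (75.7%), against 42.1% of all tested genes. Transcript length went with this: it was the highest control for 14 of 14 members under 2500 exonic bases, with a median log2 excess over the other controls of 0.40, and for 6 of 12 members from 5000 bases on, with 0.05. Over all tested genes it was the highest control for 80.7% of those under 2500 bases, with a median excess of 0.26, and for 21.4% of those from 5000 bases on, with -0.12. Without control 3, 18 members passed, 7 higher and 11 lower, against 40.1% of all tested genes (18.7% higher and 21.5% lower). The 11 included all 8 named falls with ABCC3, PRDX3 and TXNRD1, and the 7 higher were AKR1C3, GPX1, GPX4, GSTP1, KEAP1, PRDX2 and PRDX5. Log2 fold changes of other genes moved too: STUB1 from -0.89 to -0.76, FTL from -0.20 to -0.08 and GSTO1 from -0.19 to -0.03. Outside the members, PIR went from -0.65 to -0.51, PRDX4 from -0.56 to -0.45 and RPIA from -0.45 to -0.35. ME1, GCLC and GSR were nearly unmoved, at -0.81, -0.60 and -0.40. These 3 kept their calls under all 15 alternatives, and none of the 8 falls changed sign under any of them.

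**Figure D5:**
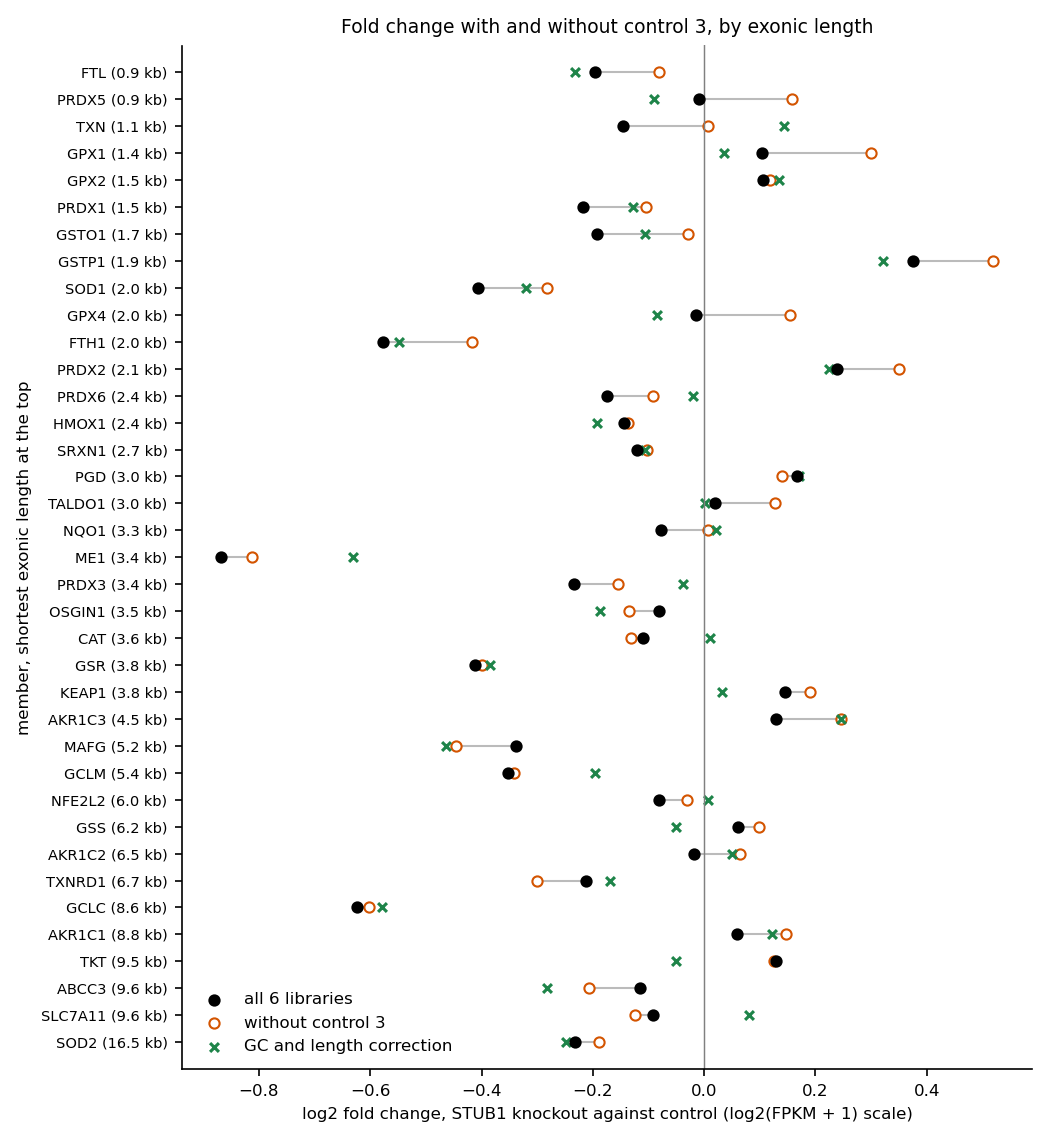
Log2 fold changes (knockout against control, log2(FPKM + 1) scale) of the 37 tested members, ordered from the shortest exonic length at the top; filled circles use all 6 libraries, open circles leave out control 3, and crosses correct each library for GC content and length. In the upper rows, from FTL to PRDX6, the open circles lie to the right of the filled ones, whereas GCLC, GSR and GCLM further down move little without control 3.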

How the data were processed

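The authors deposited 1 FPKM value for each of 20014 Ensembl genes in 6 libraries. Per the submitters' processing notes, the build was GRCh38.p13 and the tools, with no roles given, were HISAT2 2.0.5, Trimmomatic 0.36, Cufflinks, edgeR 3.6.3 and featureCounts 1.6.3. The sources used here name neither annotation release nor strand setting. FPKM is no count. Each library had 315 to 344 usable low values, and the depth that best aligned them with whole reads was taken. At that depth 59.8% to 65.7% of them fell within 0.15 of whole reads. Even spacing gives 30% at a depth fixed beforehand, which is not a like comparison. Reads were therefore not recovered, and depth is an estimate.

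Symbols came from a gene table (19991) and GENCODE 29 (23). The 11262 genes with a mean of at least 1 FPKM were tested as log2(FPKM + 1), which understates changes of low genes, with limma 3.58.1 (R 4.3.3; intensity trend; genotype only) and Benjamini-Hochberg adjustment at 0.05 over all of them. All adjusted p-values are from limma, two-sided. An exact permutation test of 3 against 3 cannot go under 0.1. The fit was tested on simulated data in which each gene had the same spread in all 6 libraries. That simulation held no outlying control 3, no length effect and no shared deviation of same-numbered libraries, so it does not cover these. Tables and plots used Python 3.11.15, pandas 2.3.3, numpy 2.4.6 and matplotlib 3.10.9.

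The members and the gene lists were chosen with earlier results of these data known. Named are all members, STUB1 and, of each further list, up to 4 genes with the smallest adjusted p past 0.05; KRT14, KRT17, JMJD8, BEST1 and MMACHC, and the genes named among the closing observations, were chosen after their values were seen. Of 145 further redox genes 143 were in the table, and GSTT1 and TRIM16L were not analysed here. Same-numbered libraries deviated together (correlations 0.375, 0.150 and 0.188 across genes). Libraries with unmatched numbers gave -0.310 (knockout 2 with control 1) to 0.0665 (knockout 2 with control 3). Deviations were taken from the mean of each group, so the matched and unmatched values are not independent of each other. No label names a shared day or batch, so whether the numbers pair the libraries is not known. The main fit therefore leaves the numbers out, and they enter as a block only among the alternatives. The 15 alternatives were a pseudocount of 0.1, no filter, TPM, median-ratio scaling, the replicate block, a GC and length correction (spline, 11177 genes) with and without the block, library quality weights, no intensity trend, and leaving out each library.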

Additional observations from a re-analysis of the deposited data

How the results depend on the processing

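Of 120 values of the 8 falls over 15 alternatives, 96 kept their call, 24 no longer passed and none changed sign; ME1, GCLC and GSR passed under all 15. The number of members past the threshold, 8, was 27 with library quality weights (11 higher, 16 lower), in which control 3 got 0.123 against 0.505 to 4.64 for the others (the weights stopped before convergence), and 3 to 18 on leaving out 1 library (0 to 7 higher, 3 to 11 lower). Members higher numbered 1 as TPM, 1 with the replicate block, 2 with GC and length corrected and 1 with that correction and the replicate block, each time including GSTP1. The replicate block otherwise kept the 8 member falls (8 lower). Of the 116 other redox genes, 29 passed, against 68 with the weights (37 higher, 31 lower; 58.6% against 57.2% of all genes) and 14 to 57 without 1 library (6 to 29 higher, 8 to 28 lower). The causes of these differences were not tested.

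Signs turned for the values below. With GC and length corrected, with or without the block, log2 fold changes were 0.00724 for NFE2L2, 0.0209 for NQO1, 0.0509 for AKR1C2, 0.0800 for SLC7A11, -0.04995 for GSS, 0.143 for TXN, -0.0508 for TKT, 0.0101 for CAT and 0.0447 for GLO1, of which only GLO1 had passed. Median-ratio scaling gave 0.00135 for AKR1C2, 0.00566 for GPX4 and 0.0109 for PRDX5, the weights gave 0.072, 0.148 and 0.124 for these, and TPM gave -0.0252 for TALDO1. Leaving out 1 library at a time, the ranges that crossed 0 were -0.145 to 0.00675 for NQO1, -0.00383 to 0.147 for AKR1C1, -0.078 to 0.0651 for AKR1C2, -0.0359 to 0.301 for GPX1, -0.112 to 0.154 for GPX4, -0.267 to 0.00774 for TXN, -0.103 to 0.158 for PRDX5 and -0.0682 to 0.127 for TALDO1. Depth was estimated and not known, so no interval from counting error is given, and with 3 libraries a group the spread rests on few values.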

Other observations

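A further 3 redox genes outside the members lay below the level set for testing and differed widely, and were singled out after their values were seen. GSTM3, a mu-class glutathione transferase, measured 0.148, 0.236 and 0.179 FPKM in the knockout and 1.03, 1.2 and 1.5 FPKM in the control, 15.1% of the control mean (log2 fold change -0.91 on the log2(FPKM + 1) scale; limma with no filter on low values, Benjamini-Hochberg adjusted p = 0.00162). SELENOP, a secreted selenium carrier, measured 0.1, 0.07 and 0.083 FPKM in the knockout and 0.809, 0.695 and 1.15 FPKM in the control (log2 fold change -0.79, adjusted p = 0.00341 in the same fit), and shares 36.1% of its exonic bases with genes on the opposite strand. SLC40A1, the iron exporter ferroportin, was listed at 0 in all 3 knockout libraries and at 0.609, 0.498 and 0.515 FPKM in the control (log2 fold change -0.62, adjusted p = 0.000349 in the same fit). For each of the 3 genes no knockout library overlapped a control library, which their selection by value made likely. Among all tested genes, 45.6% did not overlap (25.3% lower in the knockout).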
